A study of Rattus norvegicus with 9 samples.

Results

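The epidermal growth factor (EGF) family ligands Areg, Ereg, Hbegf, Tgfa and Btc, the receptors Egfr, Erbb2 and Erbb3, and Errfi1, an inducible inhibitor of EGFR and ERBB2, were examined in rat lung RNA after ischemia-reperfusion. These 9 genes, of 22833 in the table, were chosen by name with earlier results of these data known, and each name occurred in 1 entry. Lungs came from male Sprague-Dawley rats 8 weeks of age, all of which received urethane, heparin, intubation, ventilation and a thoracotomy. IR lungs had 30 min of clamping at the left hilum followed by 2 h of reperfusion. I-post C lungs had the same clamp, then 3 cycles that each joined 30 s of ischemia to 30 s of reperfusion, and then the 2 h of reperfusion. Sham lungs had the hilum dissected free without a clamp. Each group had 3 libraries, and the sources used here do not say which rats were sequenced, so p-values measure the spread between these libraries.

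EGF family ligands are made as membrane-bound precursors that metalloproteases cut from the cell surface, after which they bind ERBB receptors on the same or neighbouring cells. Receptor pairs then activate the MAP kinase and PI3 kinase cascades, and in lung epithelium this pathway is known for its part in repair after injury. Erbb2 binds no ligand of its own, Erbb3 has little kinase activity, and both work in pairs with other receptors. Errfi1, also called MIG6, is transcribed in response to growth factor and stress signals and binds the kinase domain of active EGFR and ERBB2, which shuts the receptor off.

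Upstream sequences are shown for Areg, which with Ereg had the largest differences of the members between IR and Sham in the edgeR fit, and for Errfi1, the member that passed the test. They come from RefSeq (build GRCr8), which held an entry for 7 of the 9 members, and end at the base before the annotated start. Ereg and Erbb3 are named only. Each run is 120 bases, 5′ to 3′ on the gene's strand, and capitals mark a cyclic AMP response element (CRE, TGACGTCA) or its shorter core TGACG on either strand, and a TATA box (TATAAA).
Areg, chr14:17265642-17265761, minus strand: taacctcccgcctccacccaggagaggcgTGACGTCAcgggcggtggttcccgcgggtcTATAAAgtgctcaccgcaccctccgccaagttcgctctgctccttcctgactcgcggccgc
Errfi1, chr5:166606721-166606840, plus strand: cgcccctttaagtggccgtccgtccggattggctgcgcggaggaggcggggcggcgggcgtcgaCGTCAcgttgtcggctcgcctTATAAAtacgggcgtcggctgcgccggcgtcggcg
Over the 250 bases upstream, the whole CRE was found in Areg alone of the 7 members, 91 to 84 bases before the start, and in 1.7% of 27457 rat promoters. Its core TGACG, which every whole CRE contains, was found in Areg, in Errfi1 (56 to 52 bases before the start, minus strand) and in Hbegf (193 to 189 bases before), and in 19% of all promoters. TATAAA was found in Areg (61 to 56 bases before) and Errfi1 (35 to 30 bases before) and in 13.1% of promoters. The longest run that Errfi1 shares with the stretch around the CRE of Areg was GACGTCACG, 9 letters, present in 0.55% of promoters and noticed after the sequences had been seen. A match is a description of letters and not of a bound site.

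In all, 13 motifs were searched on both strands. The GC box GGGCGG was found in Areg, Tgfa, Btc, Egfr, Erbb2 and Errfi1 and in 32.4% of promoters. The NF-kB motif, searched by its usual degenerate form, was found in Tgfa and Btc (5.23% of promoters), the TEAD motif GGAATG in Erbb2 (11.8%), the SMAD motif CAGAC in Hbegf and Tgfa (42.8%), and the glucocorticoid receptor core AGAACA in Areg (17.1%). The AP-1 motif TGANTCA (6.36%), the CArG box (1.5%), the EGR motif GCGGGGGCG (2.49%), the E-box CACGTG (5.79%) and the ETS motif CCGGAAGT (3.29%) were found in no member.

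Total counts per library ranged from 45110590 to 51214941, and 18446 to 19602 genes had a count. Mitochondrially encoded transcripts took 3.03% (Sham 3) to 8.20% (IR 3) of the counts. Earlier results of these data set Sham 3 and IR 3 apart from the other libraries. In IR 3, skeletal muscle markers (5 of 6 used) summed to 4004 in FPKM (fragments scaled for transcript length and library size), against 6.84 to 64.2 in the other 8 libraries, and the part of this in the members' levels was not tested. The common biological coefficient of variation was 0.406, and no counting interval is given because the deposited totals are larger than the number of mapped reads.

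Levels were read as FPKM, which allows comparison between genes. In Sham lungs Errfi1 had the highest level of the 9, at 34.9 ± 3.64 (SD, n = 3), followed by Erbb3 at 14.0 ± 2.60 and Hbegf at 7.65 ± 0.675. The libraries of these 3 genes did not overlap. Erbb2 (4.70 ± 0.473), Areg (4.45 ± 2.39) and Tgfa (4.09 ± 0.895) followed and overlapped among themselves, as did Egfr (1.15 ± 0.833), Ereg (0.850 ± 0.692) and Btc (0.596 ± 0.249). In IR lungs Errfi1 stood at 162 ± 36.9, and Areg (31.5 ± 12.6) came before Erbb3 (24.4 ± 4.52) and Hbegf (15.8 ± 7.40), with overlap between neighbours. By mean FPKM over the 9 libraries Errfi1 ranked 578 of the 15402 genes tested, Areg 3869, Erbb3 4083, Ereg 10385 and Egfr 13490. Btc, with a mean FPKM of 0.462, lay under the minimum of 0.5 for the test, so 8 of the 9 members were tested. A gene passed the test, or was called, at a log2 fold change (log2FC) of 1 or more in size with an adjusted p under 0.05.

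**Figure D1:**
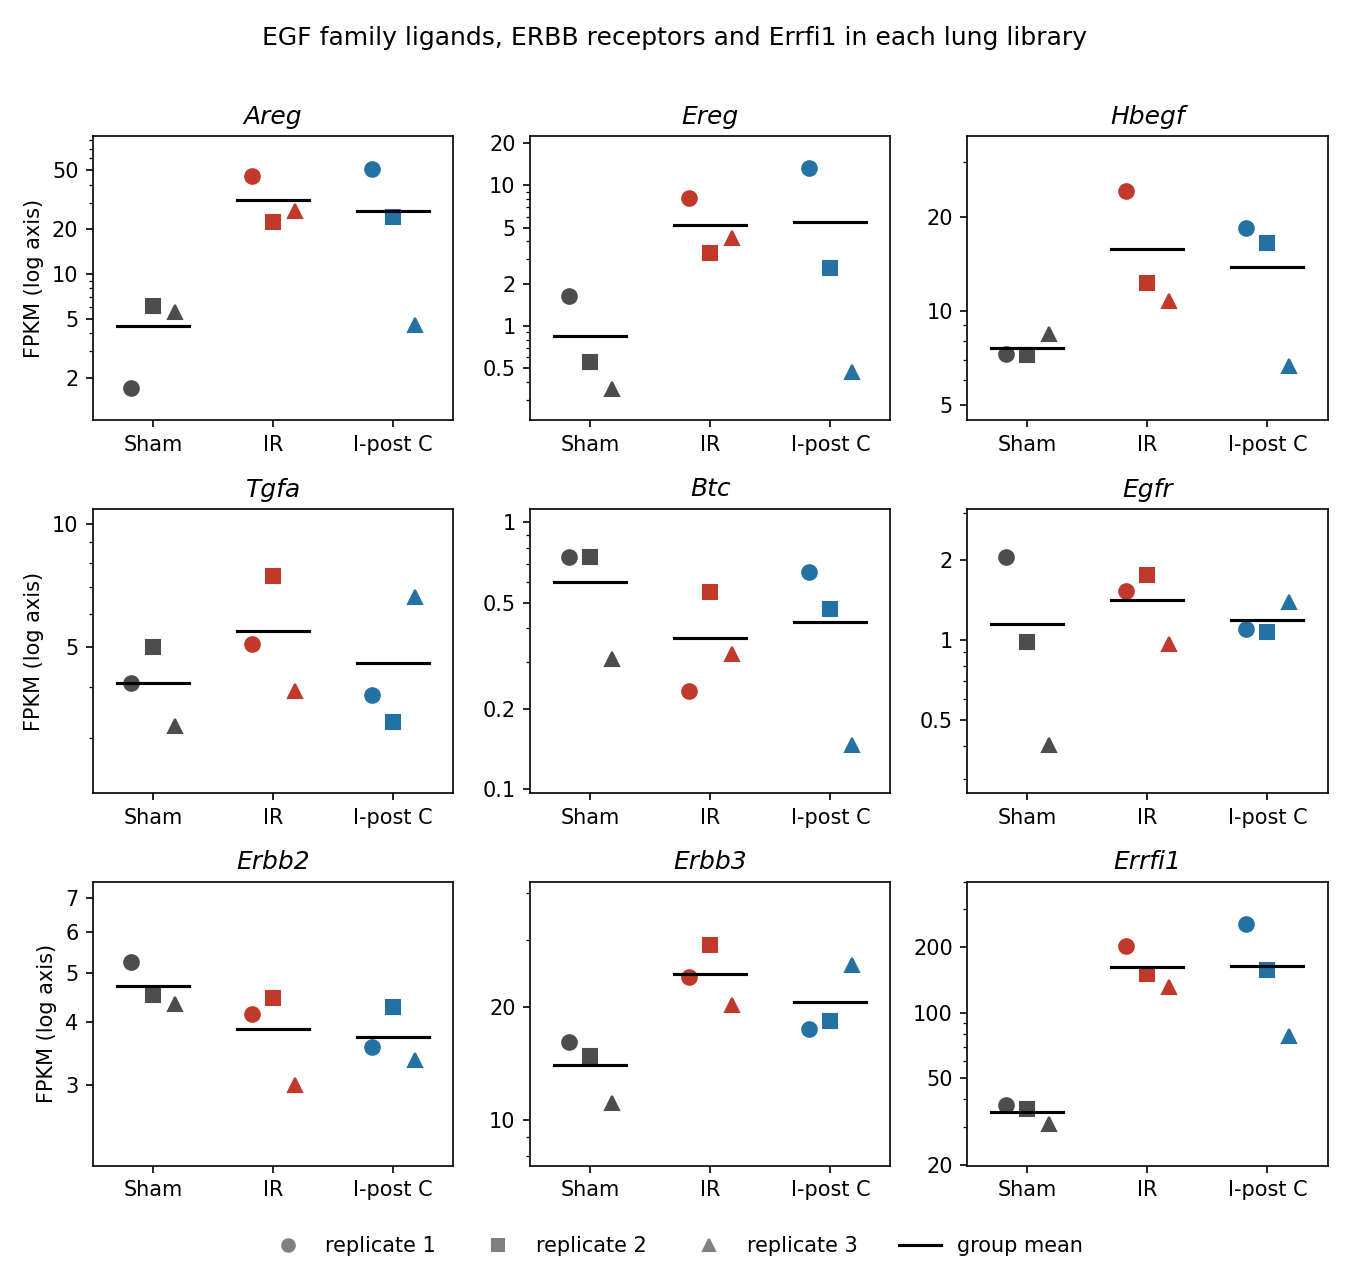
FPKM of the 9 members (log axis, a different range in each panel) in each library, by group, with circles, squares and triangles for replicates 1, 2 and 3 and a line at the group mean. For Areg, Ereg, Hbegf, Erbb3 and Errfi1 every IR point lies above every Sham point, an order found in 5.62% of all genes. The I-post C triangle for Areg, Ereg and Hbegf lies within or below the Sham range.

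Areg (ENSRNOG00000002754) encodes amphiregulin, an EGFR ligand of epithelial and immune cells. Its FPKM was 1.71, 6.11 and 5.53 in Sham 1 to 3, 45.8, 22.3 and 26.4 in IR 1 to 3, and 51.0, 24.02 and 4.54 in I-post C 1 to 3. All 3 IR libraries were above all Sham libraries, an order found in 5.62% of all genes. Of the I-post C libraries the first and second were in or above the IR range, while the third was inside the Sham range. The mean of IR was 7.09 times that of Sham. In edgeR's quasi-likelihood test over all genes, the log2FC of IR against Sham was 2.81 ± 0.81 (SE; 95% interval 0.99 to 4.64), and it did not pass the test (adjusted p = 0.244, unadjusted p = 0.0066). DESeq2 on the libraries of the same groups called it (adjusted p = 8.03e-05). In bulk tissue, more cells of a type and more RNA per cell cannot be told apart.

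Ereg (ENSRNOG00000002771) encodes epiregulin, which activates EGFR and ERBB4. It lies beside Areg on chromosome 14, with 45175 bases and no other annotated entry between them in rn6 (Areg chr14:18521930-18531179, Ereg chr14:18576355-18591394, both on the minus strand). The FPKM of Ereg was 1.64, 0.551 and 0.358 in Sham, 8.14, 3.33 and 4.24 in IR, and 13.35, 2.60 and 0.470 in I-post C libraries. The order of the I-post C libraries was the same as for Areg, and the third was again inside the Sham range. The log2FC of IR against Sham was 2.74 ± 1.02 (0.44 to 5.03, edgeR adjusted p = 0.332), the ratio of mean FPKM was 6.16, and DESeq2 on the groups compared called it (adjusted p = 0.00057), while DESeq2 on all 9 libraries did not (0.0637). With limma on log2(FPKM + 1) the difference was 1.74. Its counts were low, from 43 in Sham 3 to 1517 in I-post C 1.

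Hbegf (ENSRNOG00000018646, chr18:29329764-29340403, minus strand, rn6) encodes heparin-binding EGF-like growth factor, which is shed from the membrane and also binds ERBB4. Its FPKM was 7.29, 7.22 and 8.42 in Sham, 24.3, 12.3 and 10.8 in IR, and 18.4, 16.6 and 6.675 in I-post C libraries. The IR libraries were all above the Sham libraries, an order found in 5.62% of all genes, and I-post C 3 was below the Sham libraries. The log2FC of IR against Sham was 1.07 ± 0.39 (0.20 to 1.95), with an adjusted p of 0.322 by edgeR and 0.0966 by DESeq2, and without IR 1, the library with the highest Hbegf, the log2FC was 0.71.

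Tgfa (ENSRNOG00000016182, chr4:117962319-118046344, plus strand) encodes transforming growth factor alpha, an EGFR ligand of epithelium. Its FPKM was 4.07, 5.00 and 3.21 in Sham, 5.08, 7.435 and 3.91 in IR, and 3.81, 3.28 and 6.62 in I-post C libraries. The 3 groups overlapped, and I-post C 3, the lowest of its group for Areg, Ereg and Hbegf, was the highest for Tgfa. The log2FC of IR against Sham was 0.47 (-0.30 to 1.25, edgeR adjusted p = 0.631), and 0.18 without IR 2. Btc (ENSRNOG00000002728, chr14:18231860-18272484, plus strand), which encodes betacellulin, had an FPKM of 0.308 to 0.740 in Sham, 0.232 to 0.548 in IR and 0.146 to 0.649 in I-post C libraries, on 20 to 102 counts per library. Without the filter on low values its log2FC of IR against Sham was -0.61 (-2.02 to 0.80, edgeR adjusted p = 0.757), an interval too wide to show a difference in either direction.

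The summed FPKM of the 5 ligands was 15.5 to 19.6 in Sham, 45.7 to 83.6 in IR, and 87.3, 47.0 and 18.5 in I-post C 1 to 3. In every Sham library Hbegf was the most abundant ligand, with 47.2%, 36.8% and 47.3% of the sum. In every IR library it was Areg, with 54.8%, 48.5% and 57.9%. Areg also led in I-post C 1 (58.5%) and I-post C 2 (51.2%). In I-post C 3 Areg held 24.6%, against 36.2% for Hbegf and 35.9% for Tgfa. The makeup of I-post C 3 was thus outside the range of the other clamped libraries in the share of Areg and Ereg together, which was 27.2% there, 55.8% to 73.8% in the other 5 clamped libraries and 21.7% to 33.9% in Sham.

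**Figure D2:**
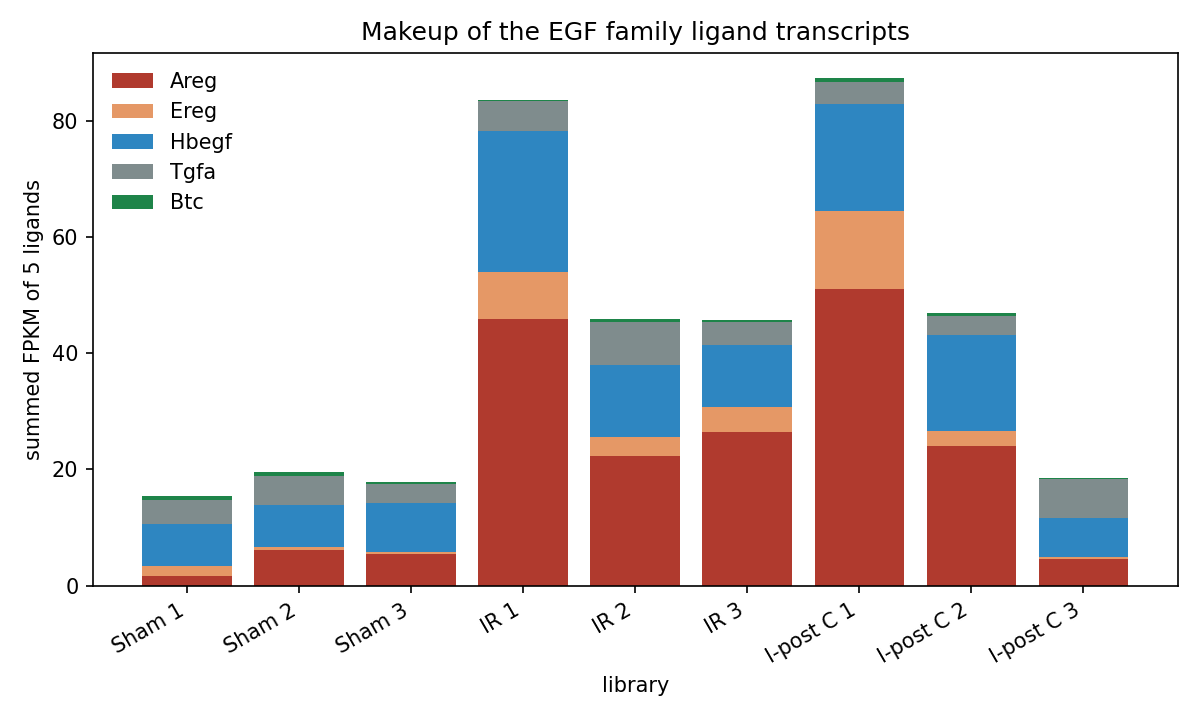
Summed FPKM of the 5 ligands in each library (bar height, linear axis from 0), divided by ligand. The IR bars reach 45.7 to 83.6 and the Sham bars 15.5 to 19.6, Areg is the largest piece of each IR bar and Hbegf of each Sham bar, and the bar of I-post C 3 (18.5) is as high as those of Sham.

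Egfr (ENSRNOG00000004332, chr14:99919485-100098796, plus strand) encodes the receptor that all 5 of these ligands bind. Its FPKM was 2.05, 0.985 and 0.404 in Sham, 1.525, 1.76 and 0.964 in IR, and 1.10, 1.08 and 1.385 in I-post C libraries. The Sham libraries spanned the range of the other groups, and the log2FC of IR against Sham was 0.42 (-0.64 to 1.49, edgeR adjusted p = 0.768). Leaving out 1 library moved it from 0.03 (without Sham 3, the library with the lowest Egfr, edgeR adjusted p = 0.996) to 0.99 (without Sham 1, the library with the highest, adjusted p = 0.199), and it was 0.23 without IR 2.

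Erbb2 (ENSRNOG00000006450, chr10:86367596-86391728, plus strand) encodes the partner receptor without a ligand. Its FPKM was 5.24, 4.53 and 4.345 in Sham, 4.14, 4.46 and 3.00 in IR, and 3.57, 4.285 and 3.36 in I-post C libraries. Every Sham library was above every I-post C library, by a small margin and in an order found in 4.08% of all genes. IR 2 was inside the Sham range. The log2FC was -0.22 (-0.66 to 0.22) for IR against Sham and -0.39 (-0.84 to 0.05) for I-post C against Sham, with edgeR adjusted p-values of 0.706 and 0.745. A small nuclear RNA entry (U6) overlaps Erbb2 on the opposite strand.

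Erbb3 (ENSRNOG00000004964, chr7:2989340-3010350, minus strand) encodes the receptor that signals mainly through PI3 kinase in pairs with ERBB2. Its FPKM was 16.1, 14.8 and 11.1 in Sham, 23.9, 29.2 and 20.2 in IR, and 17.45, 18.3 and 25.8 in I-post C libraries. Every clamped library was above every Sham library, and the highest I-post C library was I-post C 3, the one with the lowest Areg, Ereg, Hbegf and Errfi1. Of all genes, 5.62% had every IR library above every Sham library, and 5.56% had every I-post C library above them. The log2FC of IR against Sham was 0.88 ± 0.21 (0.40 to 1.35), with an edgeR adjusted p of 0.168 and a DESeq2 adjusted p of 0.0115. The limit of 1 on the size of the log2FC was not met by either tool, so Erbb3 was not called. Erbb3 made up 68.9% to 72.8% of the summed FPKM of the 3 receptors in Sham, 80.8% to 83.6% in IR and 77.4% to 84.4% in I-post C libraries.

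Errfi1 (ENSRNOG00000058186, chr5:167952728-167966009, plus strand, rn6) rose in IR lungs. Its FPKM was 37.7, 36.3 and 30.8 in Sham, 203, 151.5 and 131.5 in IR, and 257.4, 156.9 and 78.1 in I-post C libraries. Each clamped library was above each Sham library, the lowest being I-post C 3. The IR part of this order was found in 5.62% of all genes and the I-post C part in 5.56%. The mean of IR was 4.64 times that of Sham, with a log2FC of 2.27 ± 0.37 (1.44 to 3.10), and it was called with an edgeR adjusted p of 0.0497 (unadjusted p = 0.000138). The call lay at the threshold. Leaving out any 1 of the 6 Sham and IR libraries, or I-post C 2, ended it (adjusted p = 0.0892 to 0.174), while it held without I-post C 1 (0.0418) or I-post C 3 (0.0262), and the log2FC stayed between 2.15 and 2.32. With Sham 3 and IR 3 both left out, the adjusted p was 0.27 and the log2FC 2.28. DESeq2 called it with an adjusted p of 7.05e-23.

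The FPKM of Errfi1 was 1.61 to 1.95 times the summed FPKM of the 3 receptors in Sham, 4.28 to 6.87 times in IR, and 11.6, 6.63 and 2.56 times in I-post C libraries 1 to 3. All 6 clamped libraries were above the Sham libraries in this ratio. The sum was mostly Erbb3 (68.9% in Sham 1 to 84.4% in I-post C 3), so the ratio is not one of the inhibitor to EGFR and ERBB2 alone.

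Over the members together, IR against Sham asks which transcripts differ after clamping and 2 h of reperfusion. With edgeR, 1 of 8 members passed the test, as did 0.299% of all genes. DESeq2 called 3 (Areg, Ereg and Errfi1), against 1.88% of genes, and on all 9 libraries 2 (Areg and Errfi1), against 2.19% of genes. An unadjusted edgeR p under 0.05 was found for 5 members, all with higher levels in IR (Areg, Ereg, Hbegf, Erbb3 and Errfi1), against 12.2% of all genes. For the same 5 members every IR library was above every Sham library, a pattern found in 5.62% of genes. The median log2FC was 0.97 over the 8 members and -0.02 over all 15402 genes. Because the members were chosen with earlier results of these data known, these shares and medians describe them and are not a test.

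Neutrophil markers were also higher in the clamped lungs. The summed FPKM of S100a8, S100a9, Csf3r, Cxcr2 and Mmp8 (5 of 5 listed were measured, none at 0) was 82.9 to 138 in Sham, 280 to 793 in IR and 159 to 1235 in I-post C libraries. The highest sum was in I-post C 3, whose Areg, Ereg and Hbegf were inside or below the Sham range, and the lowest of the clamped libraries was I-post C 2. Erbb3 and Tgfa were both higher in IR 2 and I-post C 3 than in the other 7 libraries, which was noticed after the values were seen. The sums of IR 2 and I-post C 3 were the highest (793 and 1235). Of the clamped libraries both genes were lowest in I-post C 1 and I-post C 2, where the sums were lowest (225.3 and 159.1). Within Sham, Erbb3 was highest in Sham 1 (16.1), where the sum was lowest (82.9). Tgfa was highest in Sham 2 (5.00), where the Sham sum was highest (137.5). The share of all genes with such an order was not computed. The 7 alveolar type 2 cell markers summed to 24400 to 44800 in Sham and 24360 to 29130 in IR, and the 4 macrophage markers, of which Marco was under 1 FPKM in every library, to 108 to 156 and 113 to 146. Ciliated cell markers (3 of 4 used, Dnah5 under 1 FPKM in every library) were lower in every IR library (290.3 to 381.0) than in every Sham library (435.5 to 1091), with 394.9 to 538 in I-post C lungs. Erythroid markers (3 of 3 used) were higher in every I-post C library (12110 to 15500) than in every Sham library (3887 to 9830), with 4482 to 16330 in IR lungs. Endothelial markers (4 of 5 used) summed to 226.4 to 283.4 in IR and 312.4 to 332.4 in I-post C lungs. The Sham libraries, at 209.2 to 371.6, spanned both of these ranges. The part of cell makeup in the members' levels was not tested.

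**Figure D3:**
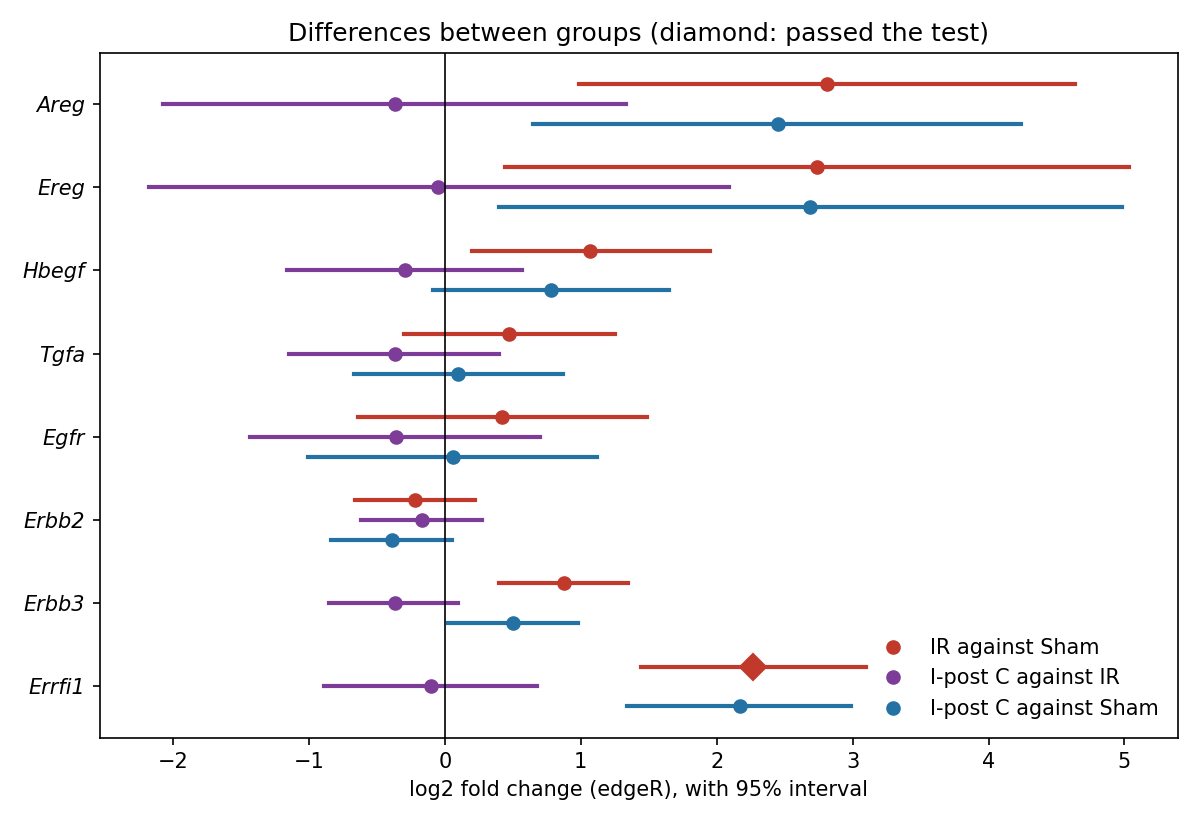
Log2 fold change of the 8 members tested, with 95% intervals, from edgeR on all 9 libraries, for 3 comparisons given in the key. The diamond marks Errfi1 in IR against Sham (2.27), the 1 member called, and every interval of I-post C against IR crosses 0.

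I-post C against IR asks which transcripts differ when the conditioning cycles come before reperfusion. The log2FC of all 8 members tested was below 0 (median -0.33, beside -0.01 over all genes), and none passed the test. Of all 15402 genes, 8071 were below 0. The ratio of mean FPKM in I-post C to that in IR was above 1 for Ereg (1.045) and Errfi1 (1.014). It was below 1 for the other members tested. By edgeR 0 genes of the whole table were called (0%), no member had an unadjusted p under 0.05 (3.01% of all genes did), and DESeq2 called 0 members and 39 genes (0.254%). The log2FC was -0.10 (-0.89 to 0.68) for Errfi1, -0.37 (-2.07 to 1.33) for Areg, -0.05 (-2.18 to 2.09) for Ereg and -0.29 (-1.16 to 0.57) for Hbegf. It was -0.37 (-0.85 to 0.10) for Erbb3, -0.37 (-1.15 to 0.40) for Tgfa, -0.36 (-1.43 to 0.70) for Egfr and -0.17 (-0.62 to 0.27) for Erbb2. The intervals for Areg and Ereg thus reach past 2 in size on the log2 scale in at least 1 direction. For no member did the I-post C and IR libraries separate. Among all genes tested, 11.19% had every I-post C library above every IR library, and 2.591% had every one below. Without I-post C 3 the sign turned for 4 members, with values of 0.13 for Areg, 0.49 for Ereg, 0.03 for Hbegf and 0.22 for Errfi1. Without IR 1 it turned for Ereg (0.32), Hbegf (0.07) and Errfi1 (0.02), without I-post C 2 for Ereg (0.30), and with scaling by library totals alone for Ereg (0.03). In limma fits on FPKM the median of all genes in this comparison was 0.102 to 0.123 on the log2 scale, against the -0.01 of edgeR. The members stayed below 0 in these fits, with -0.68 to -0.75 for Areg and -0.48 to -0.86 for Ereg, further from 0 than in edgeR, and -0.13 to -0.20 for Egfr, -0.23 to -0.27 for Tgfa and -0.03 to -0.04 for Erbb2, nearer to 0. Without I-post C 1 the values were -1.29 for Areg and -1.91 for Ereg. With the replicate block Ereg was at -0.88, Areg at -0.56 and Errfi1 at -0.20.

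I-post C against Sham shares its Sham libraries with the first comparison and its I-post C libraries with the second. EdgeR called 0 members and 0 genes (0%). An unadjusted p under 0.05 was found for 4 members (Areg, Ereg, Erbb3 and Errfi1), against 6.91% of genes. DESeq2 called Errfi1 (adjusted p = 0.000182), against 0.703% of genes. The log2FC of Errfi1 was 2.17 ± 0.37 (1.34 to 2.99, edgeR adjusted p = 0.179), and without I-post C 3 it was 2.49 and was called (adjusted p = 0.0291). Without I-post C 1 it was 1.67 (adjusted p = 0.354) and without I-post C 2 it was 2.22 (0.518). For Areg it was 2.45 (0.65 to 4.24, adjusted p = 0.659), for Ereg 2.69 (0.40 to 4.98, 0.689), for Hbegf 0.78 (-0.09 to 1.65, 0.745) and for Erbb3 0.50 (0.02 to 0.98, 0.718). Without I-post C 1, the log2FC was 1.53 for Areg, 0.83 for Ereg and 0.51 for Hbegf, and without I-post C 3 it was 0.28 for Erbb3. For Ereg limma gave 1.48, 1.77 and 1.26 at pseudocounts of 0.5, 0.1 and 1. Every I-post C library was above every Sham library for Erbb3 and Errfi1 (5.56% of all genes), and every Sham library above every I-post C library for Erbb2 (4.08% of genes).

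The 6 clamped libraries were also set against the 3 Sham libraries as the mean of both clamped groups, which is not independent of the comparisons above. EdgeR called 0 members and 6 genes (0.039%), and 5 members had an unadjusted p under 0.05 (12.4% of genes). DESeq2 on all 9 libraries called Areg, Ereg and Errfi1, against 1.9% of genes. The log2FC was 2.22 ± 0.34 (1.45 to 2.98) for Errfi1, with an edgeR adjusted p of 0.0553, 2.63 for Areg (0.236), 2.71 for Ereg (0.316), 0.92 for Hbegf (0.34) and 0.69 for Erbb3 (0.216). Without I-post C 3, Errfi1 was called, with a log2FC of 2.38 and an adjusted p of 0.0188, and without I-post C 1 these were 1.97 and 0.0748. Ereg was at 1.78 without I-post C 1 and at 1.8, 2.2 and 1.5 by limma with pseudocounts of 0.5, 0.1 and 1.

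The I-post C libraries differed widely among themselves. The highest was 11.2 times the lowest for Areg and 28.4 times for Ereg, beside 2.06 and 2.45 within IR and 3.58 and 4.59 within Sham. For 4 of the 8 members (Areg, Ereg, Hbegf and Errfi1) I-post C 1 was the highest and I-post C 3 the lowest, an order that 18.95% of all genes tested showed. Of 16 early response genes, transcripts induced within minutes to hours of growth factor or stress signals, 10 had the same order, Egr1, Fos, Fosl1, Junb, Jun, Phlda1, Dusp4, Etv4, Plaur and Hmga1. Egr1 and Fos, transcription factors named here after their values were seen, had an FPKM of 211.6, 15.8 and 6.50, and of 85.0, 31.7 and 9.06, in I-post C libraries 1 to 3, and of 1.25 to 6.84 and 1.44 to 4.18 in Sham. Total counts of I-post C 1 and I-post C 3 were close, at 49331650 and 49215190.

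**Figure D4:**
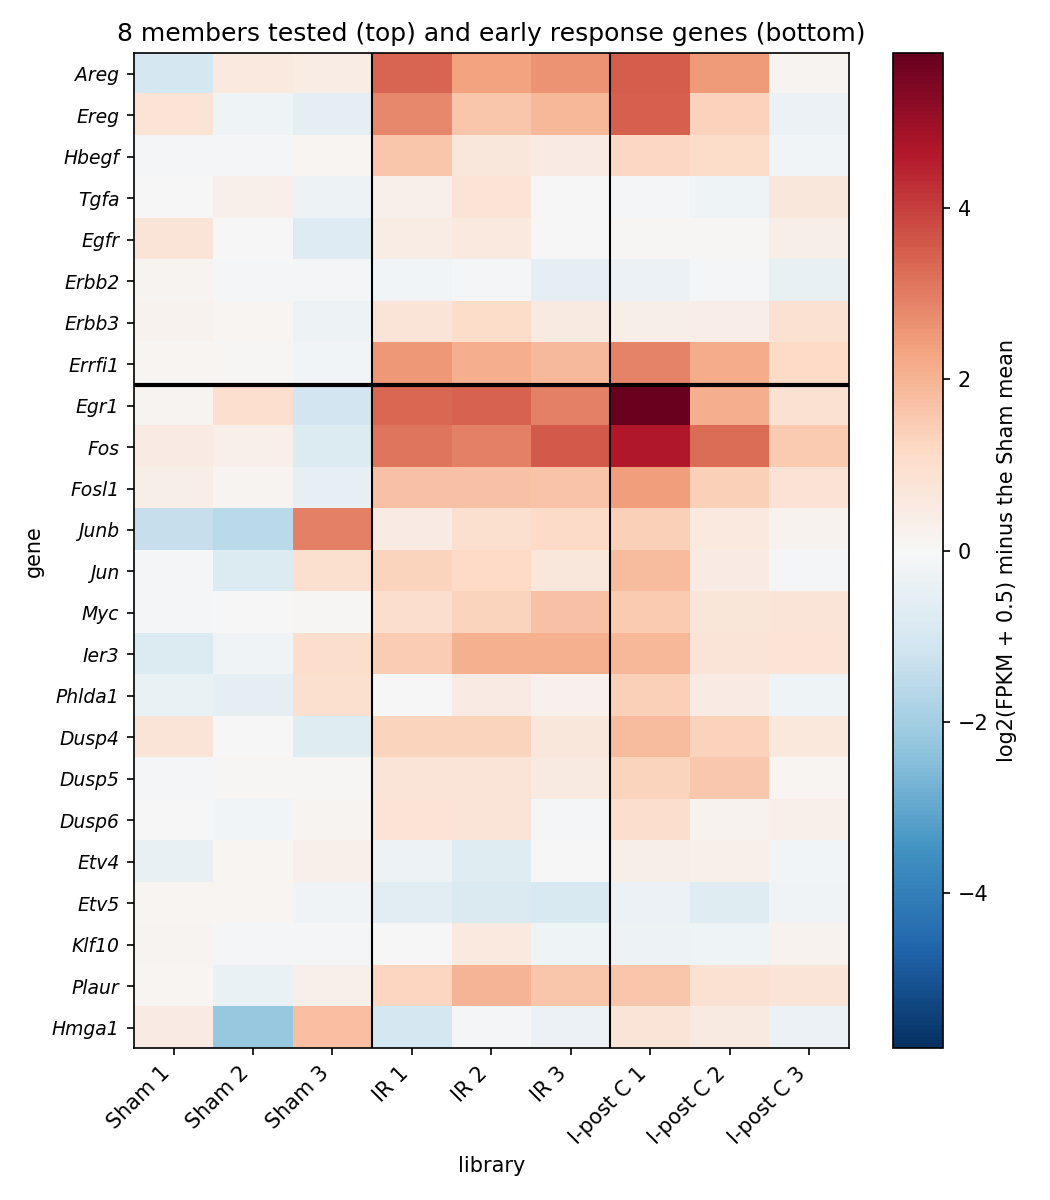
Difference of log2(FPKM + 0.5) from the Sham mean in each library (colour), for the 8 members tested (above the thick line) and the 16 early response genes (below it), with thin lines between the groups. Areg, Ereg and Errfi1 are high in the 3 IR libraries and in I-post C 1 and 2, and I-post C 3 is near the Sham level for Areg, Ereg and Hbegf.

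Across the 9 libraries, Pearson's r of log2(FPKM + 0.5) was 0.91 for Areg and Errfi1, 0.90 for Areg and Hbegf, 0.84 for Areg and Ereg, and 0.85 to 0.87 for Errfi1 with Hbegf and Ereg. Tgfa had an r of -0.04 with Areg, -0.07 with Ereg and -0.15 with Hbegf, and of 0.78 with Erbb3. These values are descriptions over 9 libraries that hold the group differences themselves. Of all genes tested, those with the highest r were Dusp1 (0.975), SNORA70 (0.966) and Atf3 (0.965) for Areg, and Lif (0.981), Fhdc1 (0.955) and Icoslg (0.95) for Ereg. They were Ccl3 (0.975), Actg1 (0.965) and Ch25h (0.959) for Hbegf, Stat3 (0.989), Sgms1 (0.982) and Slc7a6 (0.978) for Erbb3, and AABR07072371.1 (0.974), Tmem132c (0.973) and Slc25a25 (0.971) for Errfi1. Dusp1 encodes a MAP kinase phosphatase and Atf3 a stress-induced transcription factor, and their mean FPKM was 112.8 and 4.90 in Sham, 332 and 48.4 in IR, and 321.5 and 58.8 in I-post C lungs.

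Genes around these ligands and receptors were read from 5 lists, which were also chosen with earlier results of these data known. By edgeR none of their members passed the test in any comparison, so the following are values. Beside the counts below, of all 15402 genes 7381 had a log2FC of IR against Sham above 0 and 1884 (12.2%) an unadjusted p under 0.05, of which 996 were higher in IR. Of the other ERBB ligands and receptor, 3 of 7 were tested. Nrg4, a ligand of ERBB4, had an FPKM of 3.06, 2.58 and 3.76 in Sham, 1.63, 1.12 and 1.01 in IR, and 1.54, 1.78 and 0.914 in I-post C libraries, with every clamped library under every Sham library. Its log2FC of IR against Sham was -1.28 ± 0.40, with an edgeR adjusted p of 0.278 (unadjusted p = 0.0104). Of all genes, 9.44% had every IR library below every Sham library, and 4.08% had every I-post C library below them. The log2FC of Nrg2, the other gene the rule named in this list, was 0.26.

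Of 9 tested genes of ligand shedding and trafficking, 6 had a log2FC of IR against Sham above 0 (median 0.32), and 1 had an unadjusted p under 0.05, against 12.2% of all genes. That gene was Rhbdf2, whose product iRhom2 carries the sheddase ADAM17 to the cell surface. Its FPKM was 11.5, 10.3 and 9.23 in Sham, 15.8, 22.9 and 14.5 in IR, and 16.9, 15.2 and 13.8 in I-post C libraries, with a log2FC of 0.85 ± 0.19 (edgeR adjusted p = 0.139). Adam17 itself had a log2FC of 0.32, with overlapping groups, and Timp3, an inhibitor of ADAM17, one of 0.90 (adjusted p = 0.415).

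Among 25 adaptors and kinases, 19 had a log2FC above 0 (median 0.20, beside -0.02 for all genes) and 1 an unadjusted p under 0.05. It was Stat3, a transcription factor that EGFR and cytokine receptors activate, at 0.87 ± 0.19 (edgeR adjusted p = 0.121). The most abundant genes of this list, Mapk3 and Akt1, were at -0.06 and 0.12, and Sos1, an exchange factor for RAS, was at 0.53.

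Of 24 tested negative regulators, 18 had a log2FC above 0 (median 0.28), and 5 had an unadjusted p under 0.05, 4 of them higher in IR, against 12.2% of all genes. Spry4, which restrains RAS signaling and is itself induced by growth factors, had an FPKM of 10.1, 9.58 and 6.61 in Sham, 37.6, 20.4 and 13.6 in IR, and 16.1, 16.9 and 11.2 in I-post C libraries. Every clamped library was above every Sham library. Of all genes, 5.62% had every IR library above every Sham library, and 5.56% had every I-post C library above them. Spry4 was named for its small p in IR against Sham, which favours such an order. Its log2FC of IR against Sham was 1.48 ± 0.31 (edgeR adjusted p = 0.117). DESeq2 called it (adjusted p = 0.00639), the 1 gene of this list that it called (1.88% of all genes were). Cblb, a ubiquitin ligase that marks active receptors for degradation, was at 1.02 ± 0.25 (edgeR adjusted p = 0.175), while Spry1 and Usp8, the most abundant of the list, were at 0.43 and 0.28. The gene with an unadjusted p under 0.05 that was lower in IR was Rnf41, named after its values were seen. It was at -0.70 ± 0.24 (edgeR adjusted p = 0.296).

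Of 16 tested early response genes, 12 had a log2FC of IR against Sham above 0 (median 0.86, against 0.97 for the members and -0.02 for all genes), and 8 had an unadjusted p under 0.05, 7 of them higher in IR, beside 12.2% of all genes. DESeq2 called 5, against 1.88% of all genes. They were Egr1, Fos, Fosl1, Myc and Plaur, of which Egr1, Fos and Fosl1 are named here after their values were seen. Plaur, the urokinase receptor, had a log2FC of 1.72 ± 0.33 (edgeR adjusted p = 0.0979), and Myc, a transcription factor for growth, 1.49 ± 0.31 (0.119). Dusp6, a phosphatase of ERK, was at 0.58 and Jun at 0.93. The gene with an unadjusted p under 0.05 that was lower in IR was Etv5, also named after its values were seen. It was at -0.72 ± 0.19 (edgeR adjusted p = 0.195). In I-post C against IR, 8 of these 16 genes were above 0 and 8 below, with a median of 0.02.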

How the data were processed

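Reads were trimmed by the authors with Cutadapt (version 1.9 per the submitters' processing notes), mapped to rn6 with HISAT2 (2.2.1) and assembled with StringTie (2.1.6 in those notes, where the study's methods name a different version), and FPKM was estimated with StringTie and ballgown. The FPKM values were deposited by the authors, scaled for transcript length and library size. Whole-number counts per gene, deposited without normalization, were also used, and neither how the authors made them nor how reads with several matches were assigned is stated in the sources used here. The libraries were made with a protocol that marks strand.

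Counts were tested with edgeR 4.0.16 in R 4.3.3 (quasi-likelihood test, TMM scaling) in 1 fit of the 9 libraries by group, over 15402 genes whose mean FPKM reached 0.5. P-values are two-sided, with Benjamini-Hochberg adjustment over all genes tested. A gene was called at a log2FC of 1 or more in size with an adjusted p under 0.05. The procedure was tested on simulated data. Alternatives were RLE scaling, library totals, no filter, a mean FPKM of at least 1, only the groups compared, DESeq2 1.42.0 on all libraries or the groups compared, limma 3.58.1 on log2(FPKM + 0.5) and with pseudocounts of 0.1 and 1, the replicate number as a block, each library left out, and Sham 3 and IR 3 left out together. DESeq2 in the report is the fit on the groups compared, except where all 9 libraries are named.

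The members and the lists of 85 pathway genes and of 17 cell types were chosen with earlier results of these data known. Named genes were all members, for each member with an unadjusted p under 0.05 in any comparison the 3 genes with the highest Pearson r, and from each list any called gene, the 2 most abundant and the 2 with the smallest p in IR against Sham. Where 945 entries share a gene name, the entry with the highest mean FPKM was used. Of the cell type lists, only those whose sums are given beside a result are reported. Coordinates of genes are in rn6, and RefSeq upstream sequences are in GRCr8.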

Additional observations from a re-analysis of the deposited data

How the results depend on the processing

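In IR against Sham, 46 genes and 1 member were called. With library totals only these counts were 28 and 0, without the filter the member count was 0, with edgeR on the groups compared 6 genes were called, with Sham 3 and IR 3 left out 5 and 0, with DESeq2 337 and 2 on all 9 libraries and 289 and 3 on the groups compared, and with limma 0 members at each pseudocount. Leaving out 1 library gave 0 to 55 genes and 0 to 1 members. Whether the replicate number marks a pairing is not stated in the sources used here. Of the 9 same-numbered pairs, 3 had a correlation of deviations over 0.1 (-0.215 to 0.426). Pairs with different numbers ran from -0.363 to 0.349, and these overlapping ranges cannot decide whether libraries were paired. With the replicate block 26 genes and 0 members were called in IR against Sham (Errfi1 2.24, adjusted p 0.0628) and 0 genes in clamped against Sham. In I-post C against IR, 0 genes were called, 1 with Sham 3 and IR 3 left out, 15 and 39 with DESeq2 on all libraries and on the groups compared, and 0 to 1 with 1 library left out. In I-post C against Sham, 0 genes and 0 members were called, 2 genes with Sham 3 and IR 3 left out, 127 and 108 genes with DESeq2, each with 1 member, 1 gene with limma at each pseudocount, and 0 to 8 genes and 0 to 1 members with 1 library left out. In clamped against Sham, 6 genes and 0 members were called, 14 genes with library totals only, 3 without the filter, 293 genes and 3 members with DESeq2, 38, 45 and 34 genes with limma at pseudocounts of 0.5, 0.1 and 1, each with 1 member, and 0 to 48 genes and 0 to 1 members with 1 library left out. The log2FC of I-post C against IR turned for Ereg with library totals only (0.03), and with 1 library left out it ran from -1.91 to 0.49 for Ereg, -1.29 to 0.13 for Areg, -0.56 to 0.07 for Hbegf and -0.60 to 0.22 for Errfi1. In I-post C against Sham it ran from -0.29 to 0.31 for Tgfa and -0.33 to 0.62 for Egfr, and was -0.02 and -0.33 with Sham 3 and IR 3 left out. In clamped against Sham it ran from -0.15 to 0.81 for Egfr and was -0.07 with those libraries left out. In IR against Sham it ran from -0.25 to 0.14 for Mapk3 (0.06 with those libraries left out), -0.0004 to 0.24 for Akt1 and -0.05 to 0.53 for Usp8. Over all alternatives, 612 of 656 values of members and 345 of 357 values of the named list genes, which were computed for IR against Sham alone, kept their direction and their side of the threshold, and 17 and 5 turned direction. Of these results only Errfi1 in IR against Sham was called in the main fit, so no other could lose a call. The call of Errfi1 was lost in 14 alternatives, among them library totals, no filter, the replicate block and limma at each pseudocount. Where a call or direction was lost, the cause was not tested. With 3 libraries a group and a common coefficient of variation of 0.406, the width of the intervals limits what several members can show. These are Ereg, Btc and Egfr, which had low counts, and Areg, whose interval in IR against Sham ran from 0.99 to 4.64.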
